A study of Mus musculus with 5 samples.

Results

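The 89 genes described here are nuclear genes of oxidative phosphorylation: subunits of complexes I, III, IV and V and assembly factors of complex I. Complex II, whose subunits are also nuclear-encoded, is outside the set and was kept as a list beside it. The 89 are the genes of the count tables whose symbols begin with Ndufa, Ndufb, Ndufc, Ndufs or Ndufv (complex I), Uqcr (complex III), Cox4 to Cox8 (complex IV) or Atp5 (complex V), with pseudogenes left out, among 31053 genes listed. Of the 89, 36 are complex I subunits, 8 are complex I assembly factors, 8 belong to complex III, 20 to complex IV and 17 to complex V. The symbol Atp5o is listed under 2 Ensembl identifiers, so the 89 genes carry 88 symbols. The rule used names only, and no expression value.

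The study collected ovaries of untreated C57BL6/J mice at 2, 3, 4, 5 and 6 wk of age, spanning the time before and around puberty. Ovaries were dissociated with trypsin, cells that took up the dead-cell stain SYTOX Orange were removed by sorting, and 1 single-cell 3′ RNA library was made per age. How many animals entered each library is not given in the sources used here. The 5 libraries held 48163 cells, between 7779 and 11077 each, with 93438618 to 144609431 unique molecular identifiers (UMIs, each counting 1 captured RNA molecule) per library.

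Oxidative phosphorylation takes place in the inner mitochondrial membrane. Complexes I, III and IV pass electrons from NADH to oxygen and pump protons, and complex V, the ATP synthase, uses the proton gradient to make ATP. A small set of core subunits is encoded by mitochondrial DNA and every other subunit by nuclear genes, so that the complexes are built from the products of both genomes. Several complex IV and complex V subunits, and the complex IV-associated subunit NDUFA4, exist as paralogs with different tissue distributions. In steroidogenic cells of the ovary, mitochondria also hold the first enzyme of steroid synthesis, CYP11A1, which cleaves the side chain of cholesterol. Theca cells surround growing follicles and make androgens, while granulosa cells line the follicle and change as it grows from the primordial to the antral stage.

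Promoter sequence was read for members on which the results below turn: Cox7a1 and Cox7a2, paralogs with unlike patterns across ovarian cells, Cox6a1 and Atp5g3, which were high in steroidogenic theca-like cells, and Ndufs4, which was high in antral-like granulosa cells. Each run holds the 250 bases before and the 50 bases after the start that RefSeq gives (GRCm38.p6), 5′ to 3′ on the gene's strand. Cox7a1 lies at chr7:30183921-30184220 on the plus strand, and the others are on the minus strand, at chr9:79759804-79760103 (Cox7a2), chr5:115348909-115349208 (Cox6a1), chr2:73911277-73911576 (Atp5g3) and chr13:114388045-114388344 (Ndufs4). Capitals mark matches, on either strand, to AAGGTCA (a site bound by ERR and NR5A nuclear receptors), TGCGCA (a core of the NRF1 site), CCGGAAG (an ETS core) or AAGATGG (a YY1 core).
Cox7a1: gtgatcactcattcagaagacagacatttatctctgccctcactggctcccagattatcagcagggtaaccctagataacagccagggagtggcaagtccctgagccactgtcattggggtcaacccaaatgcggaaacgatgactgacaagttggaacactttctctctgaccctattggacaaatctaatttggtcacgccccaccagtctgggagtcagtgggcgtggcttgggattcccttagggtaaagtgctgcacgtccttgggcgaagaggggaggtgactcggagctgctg
Cox7a2: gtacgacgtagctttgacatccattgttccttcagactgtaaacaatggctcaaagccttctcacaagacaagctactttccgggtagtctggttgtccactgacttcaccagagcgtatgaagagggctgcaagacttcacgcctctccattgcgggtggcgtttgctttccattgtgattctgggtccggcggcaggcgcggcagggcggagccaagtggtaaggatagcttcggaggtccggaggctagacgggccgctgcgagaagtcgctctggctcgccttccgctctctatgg
Cox6a1: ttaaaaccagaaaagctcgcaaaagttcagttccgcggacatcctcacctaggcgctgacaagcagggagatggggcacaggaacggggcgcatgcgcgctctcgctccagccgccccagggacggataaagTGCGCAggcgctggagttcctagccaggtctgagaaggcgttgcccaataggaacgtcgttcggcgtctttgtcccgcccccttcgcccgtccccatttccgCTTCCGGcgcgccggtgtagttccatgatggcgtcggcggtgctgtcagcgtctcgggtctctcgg
Atp5g3: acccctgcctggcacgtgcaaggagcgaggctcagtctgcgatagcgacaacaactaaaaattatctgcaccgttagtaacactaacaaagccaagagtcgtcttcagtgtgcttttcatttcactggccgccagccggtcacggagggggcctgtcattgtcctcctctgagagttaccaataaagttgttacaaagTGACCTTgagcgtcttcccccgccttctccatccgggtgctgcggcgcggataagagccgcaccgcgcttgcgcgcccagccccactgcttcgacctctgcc
Ndufs4: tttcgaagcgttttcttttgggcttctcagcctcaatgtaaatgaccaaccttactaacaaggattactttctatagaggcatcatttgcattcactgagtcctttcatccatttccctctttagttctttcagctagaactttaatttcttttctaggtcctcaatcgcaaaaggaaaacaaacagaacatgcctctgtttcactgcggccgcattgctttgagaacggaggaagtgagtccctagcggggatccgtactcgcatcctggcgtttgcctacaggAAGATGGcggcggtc
Cox6a1 held an NRF1 core and an ETS core, Atp5g3 a nuclear receptor site and Ndufs4 a YY1 core, while none of the 4 letter strings occurred in the windows of Cox7a1 and Cox7a2. The Cox7a1 window held 7 CpG dinucleotides and the Cox7a2 window 20. The RefSeq table had promoters for 71 of the 88 symbols. Among these 71, the string AAGGTCA was present in 7 (9.86%, against 5.38% of 27025 gene symbols with a promoter), TGCGCA in 16 (22.5%, against 8.79%), CCGGAAG in 16 (22.5%, against 9.93%) and AAGATGG in 11 (15.5%, against 7.28%). The median number of CpG dinucleotides was 19 in members and 8 in all promoters. These matches describe the letters of 300-base windows and were not tested as binding sites.

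Cells were clustered again from the deposited counts with the 89 genes left out of the genes used for clustering, and clusters were named from marker genes that include no member. Named groups held 39172 cells. The theca groups were steroidogenic theca-like cells (1503 cells, marked by Cyp11a1, Cyp17a1, Star and other genes of steroid synthesis) and early theca-like cells (1798 cells, marked by Hhip, Ptch1 and others). Stromal-like cells numbered 9942 and granulosa-like cells 17623. Granulosa stages were primordial-like (816 cells), primary-like (4526), mitotic-like (2420), antral-like and remodeling-like (3647), the last marked by Ghr, Itih5 and other genes. Antral-like cells came from a cluster of 768 cells led by Inhba, Cyp19a1 and Lhcgr and one of 1070 cells that scored highest for the antral markers but was led by genes of cell division. Another cluster of 1738 granulosa cells scored highest for antral markers but was led by remodeling markers, and was left without a name by a limit set after the clusters were seen; it held 165, 223, 677, 242 and 431 cells at 2, 3, 4, 5 and 6 wk. No granulosa cluster was led by the markers of secondary follicles. Vessel groups were blood endothelial-like (714 cells), lymphatic endothelial-like (231) and pericyte-like cells (857), with smooth muscle-like cells (3956) beside them. Median UMIs per cell differed between groups: they ran from 11823 to 21321 over the libraries in steroidogenic theca-like, 6638 to 10415 in stromal-like and 2217 to 15162 in blood endothelial-like cells. Any pair of libraries shared between 18 and 35 cell barcodes.

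Almost all members were detected widely. In all cells together 51 of the 89 genes had at least 100000 UMIs, none was at 0, and 4 had fewer than 100: the heart and muscle paralog Cox6a2 (59 UMIs), the testis paralogs Cox7b2 (35) and Cox8c (9), and the second Atp5o identifier (3). Cell groups were compared on summed UMIs per group and library with edgeR's quasi-likelihood test, with the library as a block and Benjamini-Hochberg adjustment over all genes tested; a gene is called at an adjusted p below 0.05. With 1 library per age, libraries served as the replicates of a cell group, and ages themselves were not tested. Fold changes are on the log2 scale, and CPM are UMIs of the gene per 1000000 UMIs of the group in that library. Errors are standard errors of the log2 fold change, derived from its size and the statistic of the edgeR test. Values are compared between groups within a gene, since 3′ counts of different genes do not give their relative protein amounts.

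The 89 genes were summed as a share of all UMIs, and groups present in all 5 libraries were ordered. On this total, the median share was largest in antral-like granulosa cells (2.85%). Dividing granulosa cells (S phase-like 2.58%, mitotic-like 2.57%) and steroidogenic theca-like cells (2.49%) followed, and stromal-like cells had the smallest. The ranges of antral-like, dividing granulosa and steroidogenic theca-like cells overlapped. With the unnamed granulosa cluster added to the antral-like cells, their median was 2.54%, below that of S phase-like and mitotic-like cells. Pericyte-like (2.36%) and dividing mesenchymal-like cells (2.34%) had ranges that overlap that of steroidogenic theca-like cells. In steroidogenic theca-like cells the share was 2.49, 2.43, 2.36, 3.05 and 2.80% at 2, 3, 4, 5 and 6 wk. In stromal-like cells it was 1.76, 1.75, 1.69, 1.60 and 1.96%, below steroidogenic theca-like cells in each library, and the ranges of these groups did not overlap. Antral-like granulosa cells gave 2.52, 3.04, 2.85, 2.72 and 2.89%, and primary-like cells 2.16, 2.05, 1.98, 1.97 and 2.17%. Primordial-like cells gave 1.85, 1.93, 1.91, 1.76 and 2.08%. Ordered by the median share of all UMIs, early theca-like (1.99%), blood endothelial-like (1.92%) and lymphatic endothelial-like cells (1.94%) were close neighbours with overlapping ranges. So were primary-like (2.05%) and remodeling-like cells (2.1%). Cytosolic ribosomal genes are part of this total. Their share was 0.618 to 0.778 times that of stromal-like cells in blood endothelial-like cells, and 1.15 to 1.24 times in early theca-like cells. The order and the overlaps are therefore given for all UMIs only, and may differ with ribosomal and mitochondrially encoded genes left out. Rete ovarii-like cells, of which 2 libraries held enough, gave 2.54 and 2.85% of all UMIs.

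**Figure D1:**
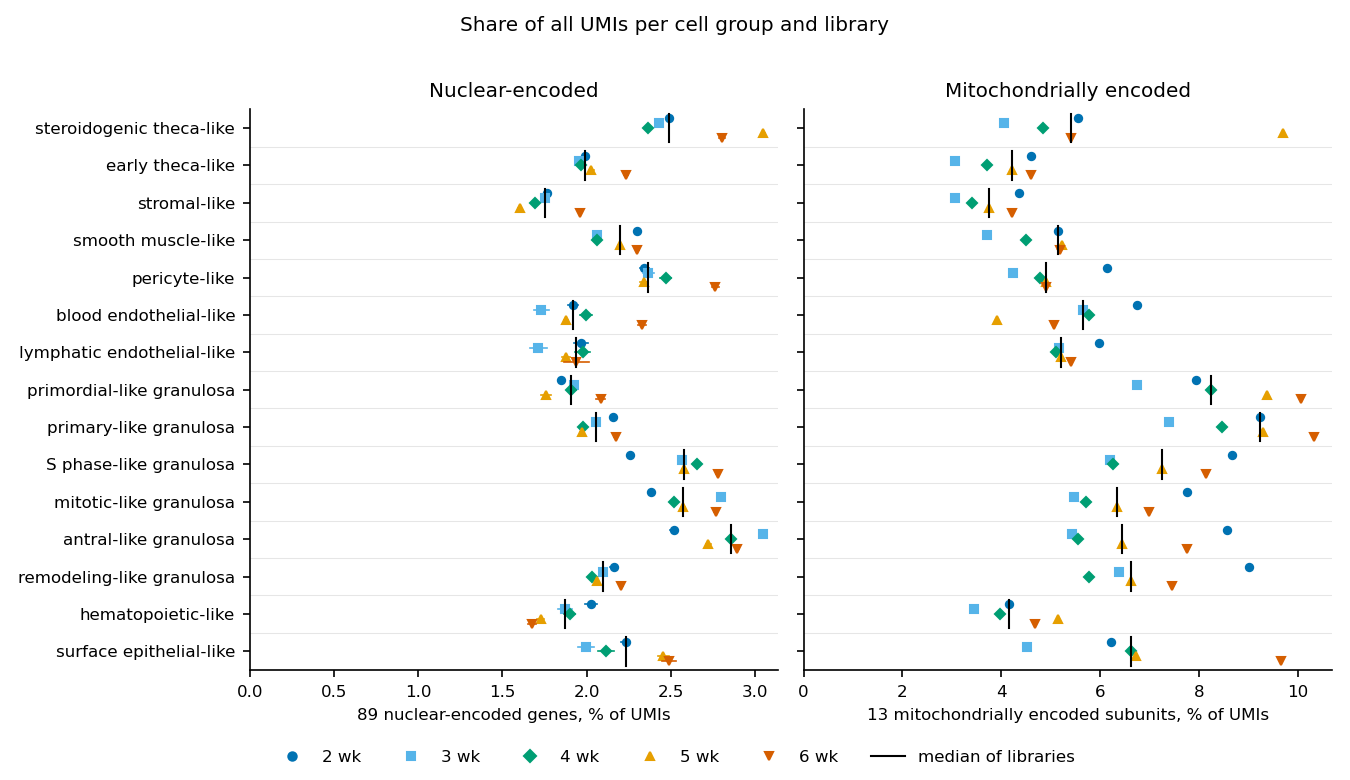
Left, the share of all UMIs taken by the 89 nuclear-encoded genes in each cell group; right, the share of the 13 mitochondrially encoded subunits (both axes in % of UMIs). Each point is 1 library, coloured by age, lines on the left are 95% exact binomial intervals for counting error, and black bars are medians. The nuclear-encoded share is 1.60 to 1.96% in stromal-like cells and 2.36 to 3.05% in steroidogenic theca-like cells; on the right, the 5 wk steroidogenic theca-like point stands at 9.69%.

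Steroidogenic theca-like cells were first compared with early theca-like cells. Members were higher in the steroidogenic cells more often than lower. Of 82 members tested, 41 were higher and 3 lower, where 15.5% of all 10812 genes tested were higher and 17.4% lower. The median log2 fold change of the members was 0.30, against 0.01 for all genes, and the libraries of the groups did not overlap for 27 of the 82. Overlap was counted for members alone, here and in the comparisons below. Whether such a count differs from that of all genes was not tested. By complex, 19 of 36 complex I subunits, 3 of 8 complex I assembly factors, 4 of 8 complex III, 10 of 14 complex IV and 5 of 16 complex V genes tested were higher. Within each library the summed share of members in steroidogenic over early theca-like cells was between 1.2 and 1.5, with a median of 1.25.

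Cox7a1, which encodes the heart and skeletal muscle form of a complex IV subunit, had the greatest difference among the members tested. Its level was 26.0, 21.3, 39.3, 32.9 and 16.9 CPM in steroidogenic theca-like cells at 2, 3, 4, 5 and 6 wk. In early theca-like cells it was 1.62, 1.92, 5.73, 2.30 and 4.52 CPM. Every steroidogenic value was above every early theca value, and the log2 fold change was 3.01 ± 0.28 (8.08-fold, edgeR adjusted p = 0.00029, n = 5 libraries). These levels rest on 798 UMIs in steroidogenic and 78 in early theca-like cells. The widely expressed paralog Cox7a2 was also higher, at 388, 425, 390, 485 and 466 CPM against 291, 318, 321, 301 and 343 CPM, with a log2 fold change of 0.38 ± 0.09. Cox7a2l, another gene of this paralog family, was lower in the steroidogenic cells, with a log2 fold change of -0.37 ± 0.08.

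Cox6a1, the widely expressed form of another complex IV subunit, was at 365, 374, 380, 620 and 422 CPM in steroidogenic and 198, 199, 183, 209 and 232 CPM in early theca-like cells. The log2 fold change was 0.98 ± 0.12 (edgeR adjusted p = 0.00079), and 0.85 without the 5 wk library, which had the highest value. Cox6b2, known from testis, went the other way, at 48.9, 38, 26.5, 21.8 and 23.5 CPM against 65.7, 51.4, 43.4, 31.0 and 29.4 CPM (log2 fold change -0.55 ± 0.09, edgeR adjusted p = 0.0032). It was lower in steroidogenic theca-like cells in each library, although the ranges overlap. Cox8a and Ndufa4, both complex IV subunits, rose by 0.41 and 0.50 on the log2 scale. Cox4i1 (0.20) and Cox5a (0.20), subunits next to the catalytic core, did not pass the test.

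Among the c-ring genes of complex V, which encode the same mature protein, Atp5g3 was at 323, 272, 342, 841 and 404 CPM in steroidogenic and 217, 168, 155, 198 and 245 CPM in early theca-like cells. Its log2 fold change was 0.97 ± 0.22 (edgeR adjusted p = 0.011), and 0.70 without the 5 wk library. Atp5g2 showed no call (-0.01), and Atp5g1 (0.26) lost its call without the 2, 3, 4 or 6 wk library (0.22, 0.30, 0.29 and 0.24). Atp5b, the catalytic beta subunit of the ATP synthase, was at 875, 894, 849, 948 and 924 CPM against 575, 634, 592, 619 and 606 CPM, groups that do not overlap (log2 fold change 0.50 ± 0.07, edgeR adjusted p = 0.0020). Atp5a1, its alpha partner, did not pass the test (0.21, adjusted p = 0.064).

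In complex I, the accessory subunit gene Ndufc1 was at 269, 257, 270, 412 and 335 CPM in steroidogenic and 158, 141, 133, 155 and 202 CPM in early theca-like cells (log2 fold change 0.89 ± 0.11). Ndufs1, the largest iron-sulfur subunit of the complex, rose by 0.66 ± 0.14, with 55.9, 46.7, 58.5, 75.0 and 50 CPM against 36.7, 26.2, 36.0, 30.7 and 42 CPM. Ndufv1, the NADH-binding subunit, did not pass the test (0.06), and Ndufv3 was lower (-0.25 ± 0.07, edgeR adjusted p = 0.029), a call that was lost without the 2, 3, 4 or 6 wk library (-0.27, -0.27, -0.24 and -0.23). In complex III, Uqcrfs1, the Rieske iron-sulfur protein, rose by 0.54 ± 0.08, and the core protein gene Uqcrc1 (0.28, adjusted p = 0.059) did not pass.

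The lists around the members moved as follows in the same comparison. Of the 13 mitochondrially encoded subunits 6 were higher and 0 lower, among them mt-Nd6 (log2 fold change 0.61 ± 0.11), mt-Atp8 (0.58 ± 0.11) and mt-Nd2 (0.78 ± 0.25). In the citrate cycle list 10 of 13 were higher, with Suclg2 at 0.79 ± 0.11 and Idh3a at 0.75 ± 0.15, while citrate synthase Cs (0.23, adjusted p = 0.081) did not pass. Both complex II genes that passed, Sdha (0.63 ± 0.14) and Sdhd (0.46), were higher. Of the genes of the mitochondrial ribosome 37 of 77 were higher and 2 lower, and of the cytosolic ribosome 0 of 83 were higher and 7 lower. None of the 7 tested regulators of mitochondrial gene expression was called; Esrra had a log2 fold change of 0.33, Tfam 0.10 and Nrf1 -0.20. The electron carriers that serve CYP11A1, Fdx1 (4.11 ± 0.35) and Fdxr (2.78 ± 0.13), were far higher. Slc25a4, an ADP/ATP carrier, was lower (-0.36 ± 0.11).

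Quantities beside the members also differed between these groups. The share of immediate early and heat shock genes, which rise during tissue dissociation, was 0.689 to 0.893 times as high in steroidogenic as in early theca-like cells, with 0 of 9 genes higher and 4 lower. At 5 wk steroidogenic theca-like cells stood apart: mitochondrially encoded subunits took 9.69% of UMIs against 4.06 to 5.55% in the other libraries, and cytosolic ribosomal genes 19.7% against 28.6 to 32.7%. At that age 479 of 601 cells came from one of the 2 clusters that made up the group, in which the members' share was 2.89, 2.61, 2.45, 3.14 and 3.14% at 2 to 6 wk. The other cluster gave 2.24, 2.29, 2.26, 2.66 and 2.64%, above the early theca-like median of 1.99% in each library. Without the 5 wk library 48 members were called, but the median log2 fold change of the members fell from 0.30 to 0.21. Without the 3 or 6 wk library 27 and 28 were called, with medians of 0.32 and 0.30. In cells of 8000 to 16000 UMIs, a restriction to like depths chosen after the data were seen, 25 were called. The median log2 fold change of the members was 0.25 there, against 0.01 for all genes. The share of all genes called in such alternative fits is not given here or below. The part of depth, of dissociation genes or of the 5 wk library in the difference was not tested further.

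Against stromal-like cells, steroidogenic theca-like cells were higher in 63 and lower in 4 of 85 members tested, where 21.7% and 24.5% of 12718 genes were higher and lower. The median log2 fold change was 0.49, and the groups did not overlap for 48 members. Steroidogenic, early theca-like and stromal-like cells recur in these comparisons, which therefore share libraries and are not independent. Cox7a1 led again (log2 fold change 4.91 ± 0.28), with stromal levels of 0.651, 0.809, 0.966, 0.581 and 1.19 CPM. Ndufc1 (1.24 ± 0.15) and Cox6a1 (1.28 ± 0.16) followed, and the restriction to cells of 8000 to 16000 UMIs gave 40 calls, against 67 in all cells. In this comparison 12 of 13 mitochondrially encoded subunits and 65 mitochondrial ribosome genes were higher, and all 9 immediate early and heat shock genes were lower.

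The members that were lower in steroidogenic theca-like than in stromal-like cells were all tissue-restricted paralogs of complex IV. Cox6b2 was at 82.3, 86.5, 63.1, 39.4 and 51.5 CPM in stromal-like cells and had a log2 fold change of -1.05 ± 0.10. Cox8b, the muscle and brown fat form, was counted 1 time in steroidogenic theca-like and 140 times in stromal-like cells, a ratio of 0.0239 (95% exact interval of counting error 0.000600 to 0.135). Ndufa4l2, a hypoxia-responsive paralog of Ndufa4, was counted 8 times in steroidogenic theca-like and 759 times in stromal-like cells (ratio 0.0352, 0.0151 to 0.0697), and Cox4i2, a form of COX4 known from lung and vessel walls, 14 and 282 times (ratio 0.166, 0.0895 to 0.283).

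Early theca-like cells already differed from stromal-like cells. Of 85 members tested 68 were higher and 4 lower, where 18.5% and 19.7% of 12236 genes were higher and lower, but the differences were small: the median log2 fold change was 0.24, 6 members passed 0.5 in size, and the groups did not overlap for 10. Within each library the summed share was 1.11 to 1.26 times that of stromal-like cells. Cox6c, a small complex IV subunit, rose by 0.57 ± 0.05, with 1245, 914, 856, 1295 and 1534 CPM in early theca-like and 916, 739, 618, 766 and 1051 CPM in stromal-like cells. Cox5a rose by 0.53 ± 0.06, and its groups did not overlap: 243, 252, 255, 280 and 282 CPM against 193, 199, 182, 169 and 211 CPM. Cox7a1 (1.91 ± 0.25) was higher as well, and Cox6b2 lower (-0.49 ± 0.07). In the same comparison 82 of the cytosolic ribosome genes were higher and 0 lower, 60 mitochondrial ribosome genes were higher, and 8 immediate early and heat shock genes were lower.

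**Figure D2:**
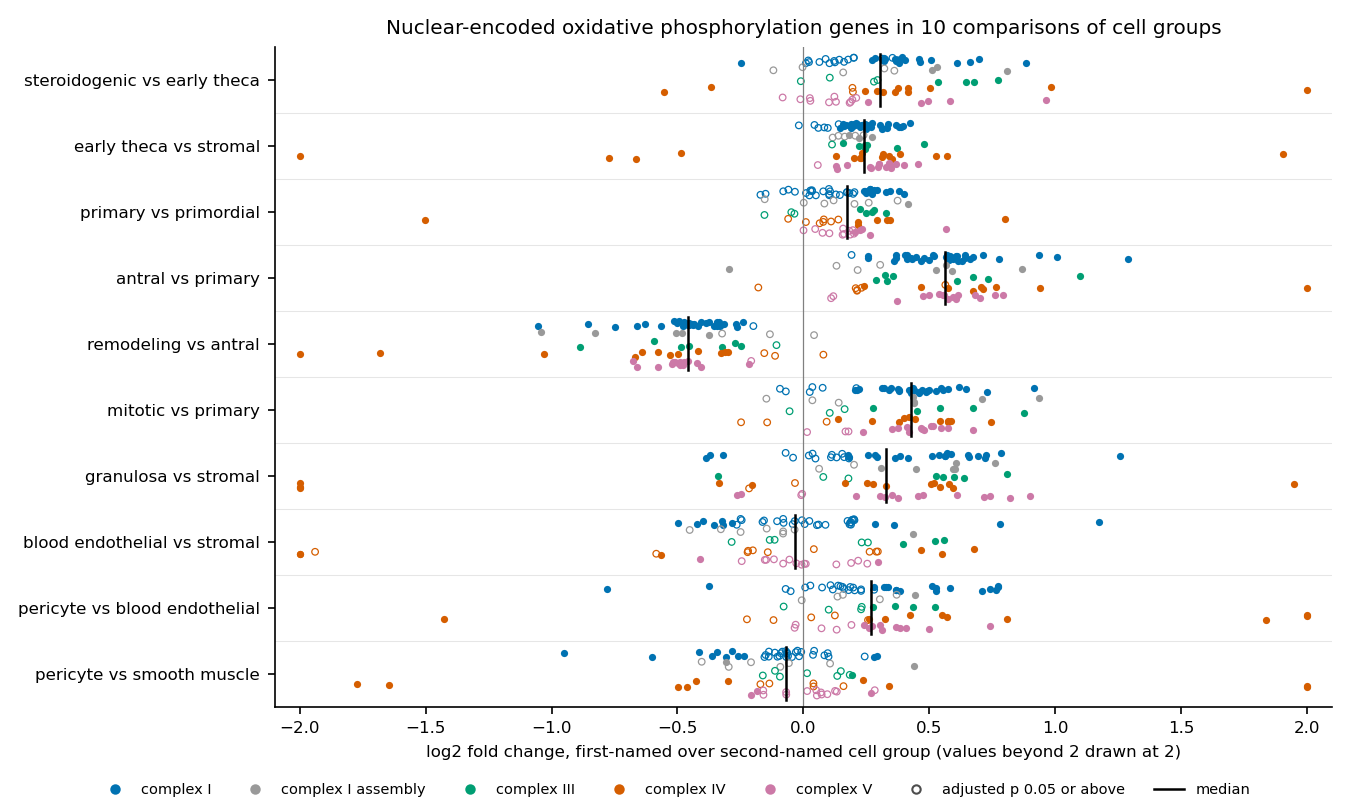
Log2 fold change of each member tested in 10 comparisons of cell groups (horizontal axis, first-named over second-named group; values beyond 2 in size are drawn at 2). Each point is a gene, coloured by complex, filled where the adjusted p was below 0.05, and black bars are medians. The medians are 0.56 for antral over primary, -0.46 for remodeling over antral and -0.03 for blood endothelial over stromal cells.

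Along the granulosa stages, members were lowest in primordial-like cells, somewhat higher in primary-like cells, highest in antral-like cells and lower again in remodeling-like cells. Between primordial-like and primary-like cells, the step at which flat granulosa cells become cuboidal, 30 of 82 members were higher in primary-like cells and 1 was lower, where 16.2% and 19.2% of 11111 genes were higher and lower. The median log2 fold change was 0.17, and the groups did not overlap for 4 members. The count fell to 10 without the 2 wk, 12 without the 3 wk and 17 without the 5 wk library, which hold 316, 210 and 81 primordial-like cells. Atp5o, a peripheral stalk subunit of the ATP synthase, was at 545, 535, 467, 494 and 566 CPM in primary-like and 317, 370, 358, 335 and 440 CPM in primordial-like cells, groups that do not overlap (log2 fold change 0.57 ± 0.09, edgeR adjusted p = 0.00022). Ndufc1 (0.40) and Cox5a (0.34) rose, and Atp5b (0.26) lost its call without the 2 or 3 wk library (0.21 and 0.26). In this comparison 73 cytosolic ribosome genes were higher, and the share of immediate early and heat shock genes in primary-like cells was 0.367 to 0.649 times that in primordial-like cells; their part in the members' difference was not tested.

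Cox7a1 was the 1 member that was lower in primary-like cells. It was at 29.7, 10.3, 7.23, 3.40 and 10.7 CPM in primordial-like and 9.47, 2.73, 3.54, 2.63 and 2.93 CPM in primary-like cells (log2 fold change -1.50 ± 0.22, edgeR adjusted p = 0.00017). It was lower in primary-like cells in each library, and the 2 wk library was the highest in both groups; without it the log2 fold change was -1.47. Of Cox7a1 and Cox7a2 UMIs, Cox7a1 made up 8.56% in primordial-like cells at 2 wk and 0.952 to 2.78% at the other ages.

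Antral-like cells were set against primary-like cells, a comparison chosen after the data were seen because no secondary stage could be named. Of 83 members tested 70 were higher and 1 lower, where 23.1% and 21.2% of 11683 genes were higher and lower; the median log2 fold change was 0.56 against 0.01 for all genes, and the groups did not overlap for 40 members. By complex 35 of 36 complex I subunits, 4 of 8 assembly factors, all 8 complex III, 9 of 15 complex IV and 14 of 16 complex V genes tested were higher. The summed share rose 1.17 to 1.48 times within libraries. Of the antral-like cells 1070 were in the cluster led by division genes. With the other 768 cells alone, a fit added after the data were seen, 59 members were higher and 1 lower, with a median log2 fold change of 0.45. With the unnamed granulosa cluster added to the antral-like cells 65 were higher and 2 lower, with a median of 0.38. Antral-like cells had medians of 14448 to 18505.5 UMIs per cell over the libraries and primary-like cells 9093 to 16465.5.

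Ndufs4, an accessory complex I subunit, was at 255, 502, 427, 410 and 456 CPM in antral-like and 194, 162, 161, 175 and 182 CPM in primary-like cells. All antral values were above all primary values (log2 fold change 1.29 ± 0.17, 2.44-fold, edgeR adjusted p = 0.00035), with the smallest difference at 2 wk. Uqcrq, a small complex III subunit, was at 363, 604, 465, 420 and 439 CPM against 227, 254, 233, 190 and 221 CPM (1.10 ± 0.10). Ndufc1 was at 285, 350, 303, 333 and 417 CPM against 199, 162, 160, 164 and 206 CPM (1.01 ± 0.10). Cox6a1 (0.94 ± 0.09), Ndufv1 (0.78 ± 0.11), Cox7a2 (0.71), Atp5b (0.70 ± 0.10), Atp5a1 (0.61) and Cox4i1 (0.57) rose too. Ndufs1 (0.26) lost its call without the 2, 3, 4 or 5 wk library (0.24, 0.21, 0.20 and 0.24), with the cluster led by antral markers alone (0.27) and with the unnamed cluster added (0.05). Not called were Cox5a (0.23), Ndufa4 (0.21), Cox6c (0.21), Cox6b2 (-0.18) and Atp5o (0.12). The only member lower in antral-like cells was the assembly factor gene Ndufaf4 (-0.30 ± 0.08), which DESeq2 did not call.

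Cox4i2 had the greatest log2 fold change between these stages, at low levels: 2.39, 4.86, 5.61, 4.54 and 13.1 CPM in antral-like and 0.818, 0.634, 0.849, 0 and 0.472 CPM in primary-like cells (3.32 ± 0.47, edgeR adjusted p = 0.00057). The groups did not overlap, yet Cox4i2 made up no more than 0.223 to 1.02% of the Cox4i1 and Cox4i2 UMIs of antral-like cells.

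The mitochondrially encoded subunits went the other way. In antral-like against primary-like cells 0 of 13 were higher and 9 lower by edgeR, with a median log2 fold change of -0.35; mt-Nd6 was at -0.64 ± 0.09, mt-Nd3 at -0.55 ± 0.09 and mt-Co1 at -0.44, while mt-Nd4 (-0.17) did not pass. Their summed share was 9.24, 7.40, 8.46, 9.29 and 10.3% in primary-like and 8.55, 5.43, 5.55, 6.44 and 7.76% in antral-like cells, lower in each library. Among the other lists 44 of 77 mitochondrial ribosome genes, 12 of 16 glycolysis genes and 6 of 8 carriers were higher. Glycolysis was led by Eno1 (1.76 ± 0.20) and Gapdh (1.39 ± 0.11), with Hk1 lower (-1.58 ± 0.15). Of the regulators Nrf1 rose by 0.29 ± 0.09 and the coactivator gene Ppargc1a was lower (-2.51 ± 0.41).

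Mitotic-like cells showed a like contrast with primary-like cells. In them 64 of 82 members were higher and 0 lower, where 28.4% and 29.0% of 12140 genes were higher and lower (57.4% called in all); at an unadjusted p below 0.05 edgeR also found 0 lower, and so did DESeq2. The median log2 fold change was 0.43, and the groups did not overlap for 38. Ndufaf2, an assembly factor of complex I, was at 73.1, 101, 83.2, 82.7 and 96.8 CPM against 44.5, 45.4, 49.3, 38.6 and 56.1 CPM (0.93 ± 0.08, edgeR adjusted p = 2.3e-05). Cox7a2 rose by 0.75 ± 0.07 and Uqcrq by 0.88 ± 0.11. All 13 mitochondrially encoded subunits were lower, from -0.60 ± 0.06 for mt-Co1 to -0.22 ± 0.08 for mt-Atp8, and 62 mitochondrial ribosome genes were higher. Mitotic-like cells had medians of 20581 to 29561.5 UMIs. The comparison shares the primary-like cells with the one before, and the antral-like group holds a cluster led by division genes; the members' share was 2.60 to 3.03% in that cluster and 2.44 to 3.07% in the cluster led by antral markers.

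Remodeling-like cells, set against antral-like cells, had 74 of 83 members lower and 0 higher, where 19.3% and 20.2% of 11476 genes were lower and higher (39.5% called in all). At an unadjusted p below 0.05 edgeR found 0 higher, and DESeq2 found 0. The median log2 fold change was -0.46, and the groups did not overlap for 40 members. Within libraries the summed share was 0.689 to 0.860 times that of antral-like cells, and by complex 35 of 36 complex I subunits and 15 of 16 complex V genes were lower. Ndufs4 was at 201, 184, 195, 195 and 207 CPM in remodeling-like cells, below every antral value (-1.05 ± 0.13, edgeR adjusted p = 0.00021). Uqcrq (-0.89 ± 0.09), at 244, 264, 244, 221 and 263 CPM, and Cox7a2 (-0.67 ± 0.08), at 344, 388, 351, 335 and 378 CPM, were also below every antral value. Cox4i2 was at 0.705, 0, 0.904, 0.769 and 0.639 CPM (-3.27 ± 0.37). Cox5a (-0.33) lost its call without the 4 or 6 wk library (-0.33 in both fits), and Cox6c (0.08) and Cox7c (-0.11) were not called.

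None of the 13 mitochondrially encoded subunits was called between remodeling-like and antral-like cells, while 59 mitochondrial ribosome and 11 glycolysis genes were lower. The unnamed granulosa cluster that scored for antral markers but was led by remodeling markers had a members' share of 2.08 to 2.27%, close to remodeling-like cells (2.03 to 2.21%). Adding its cells to the antral-like group lowered the median share of that group from 2.85 to 2.54%, and the median log2 fold change of remodeling-like over antral-like cells went from -0.46 to -0.29, with 0 members higher and 68 lower. With the cluster led by antral markers as the only antral-like cells the median was -0.35, with 56 members lower and 1, Cox6c, higher. Cox5a lost its call in both fits (-0.11 and -0.05). The share of immediate early and heat shock genes was 1.07 to 1.59 times as high in remodeling-like as in antral-like cells, higher in 5 of 5 libraries, with 2 of 9 genes higher, and its part was not tested.

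All granulosa-like cells together were compared with stromal-like cells to set the lineages side by side. Of 85 members tested 55 were higher and 11 lower, where 36.9% and 34.4% of 14515 genes were higher and lower. Members had a median log2 fold change of 0.33, against 0.04 for all genes. The groups did not overlap for 47 members, a count made for members alone. Ndufs4 was at 203, 254, 284, 263 and 302 CPM in granulosa-like and 97.2, 90.9, 95.4, 91.1 and 110 CPM in stromal-like cells (1.26 ± 0.09). Atp5o (0.90 ± 0.07), Atp5b (0.74) and Ndufs1 (0.59) rose, and Cox4i1 (-0.03) was not called. Cox6b2 was lower, at 23.2, 18.2, 16.7, 12.6 and 13 CPM (-2.09 ± 0.09). Cox8b was counted 4 times in granulosa-like and 140 times in stromal-like cells. All 13 mitochondrially encoded subunits were higher, from mt-Cytb (0.52 ± 0.05) to mt-Co1 (1.32 ± 0.06), and 55 cytosolic ribosome genes were lower. The share of immediate early and heat shock genes was 0.313 to 0.363 times that of stromal-like cells. In cells of 8000 to 16000 UMIs 35 members were higher and 12 lower, and the median log2 fold change was 0.14. There Atp5g1, Cox7b and Cox8a turned from higher to log2 fold changes of -0.035, -0.085 and -0.019.

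Within the stroma, the summed share was highest in Cd24a-type cells (1.76 to 2.08% over libraries, median 1.98%), followed by Cxcl12-type (1.57 to 1.95%, median 1.72%), Hoxd9-type (1.49 to 1.83%, median 1.60%) and Col14a1-type cells (1.41 to 1.71%, median 1.52%), each named by a leading marker. Neighbours in that order overlapped in their ranges, while Cd24a-type and Col14a1-type cells did not overlap. Dividing mesenchymal-like cells reached 2.20 to 2.51%.

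Cox6b2 set Hoxd9-type and Cd24a-type cells apart more than the sum did, whose ranges in these types overlapped. Of Cox6b1 and Cox6b2 UMIs, Cox6b2 made up 23.5 to 32.8% in Hoxd9-type and 5.56 to 12.7% in Cd24a-type cells, ranges that do not overlap, with 17.1% as the median of Cxcl12-type and 24.6% as that of Col14a1-type cells. In stromal-like cells as a whole the share ran from 13.9 to 24.2%, in early theca-like cells from 7.48 to 17.8% and in steroidogenic theca-like cells from 3.60 to 11.4%. Surface epithelial-like cells were at 14.2 to 20.6%, and antral-like granulosa cells at 2.45 to 4.05%. These paralog shares were described and not tested.

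**Figure D3:**
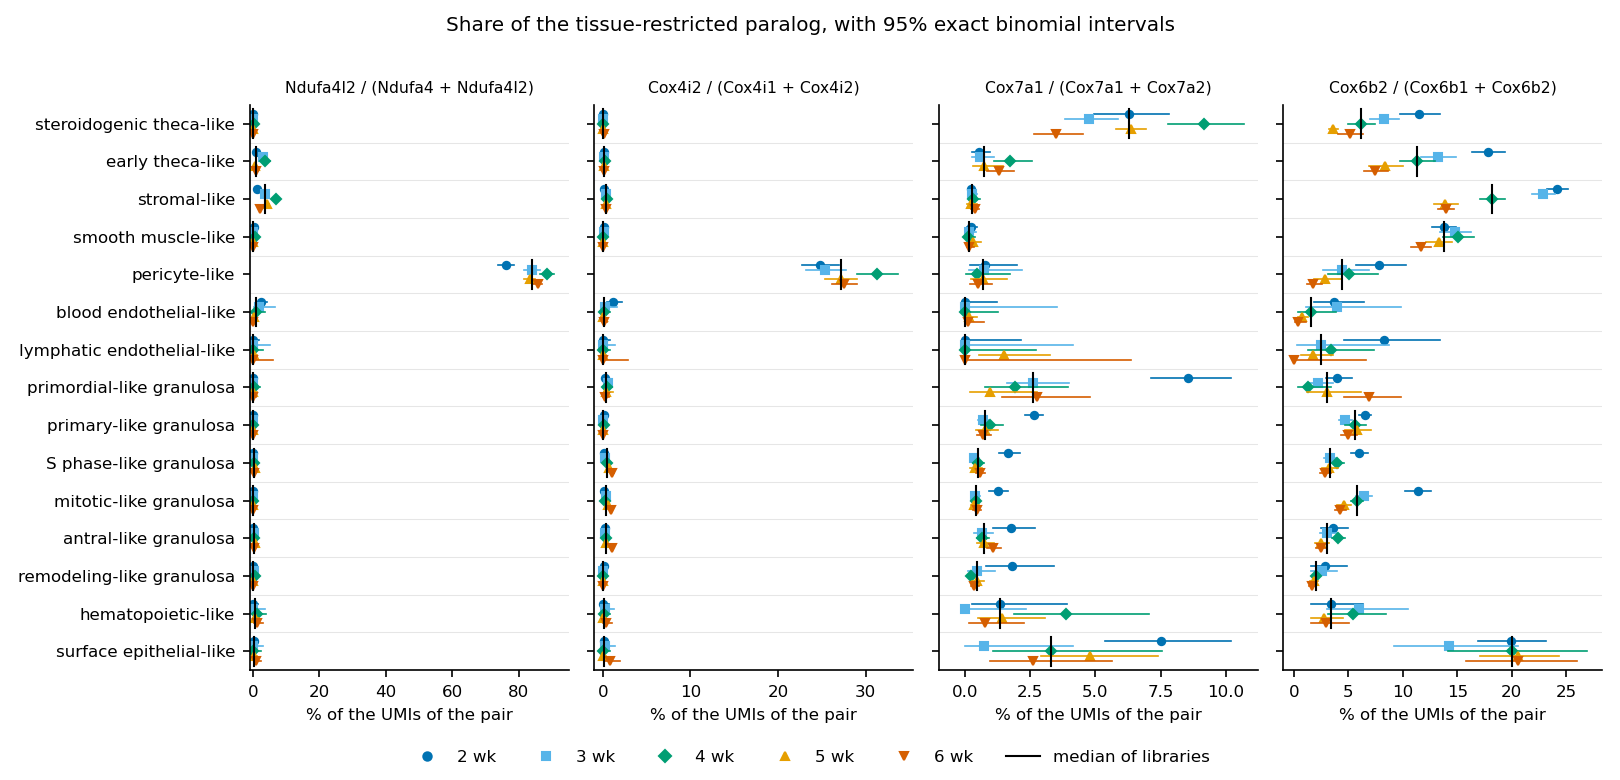
Share of the tissue-restricted paralog in the UMIs of its pair (horizontal axes, %) for Ndufa4l2, Cox4i2, Cox7a1 and Cox6b2 in each cell group; points are libraries coloured by age, lines 95% exact binomial intervals for counting error and black bars medians. Ndufa4l2 stands at 76.2 to 88.6% and Cox4i2 at 24.8 to 31.3% in pericyte-like cells, and Cox7a1 at 3.5 to 9.15% in steroidogenic theca-like cells.

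In the vessels, pericyte-like cells, the mural cells that wrap capillaries, differed from both neighbours in their paralogs. Ndufa4l2 was at 680, 826, 977, 844 and 952 CPM in pericyte-like, 11.5, 6.11, 3.36, 0.786 and 0 CPM in blood endothelial-like and 1.34, 0, 1.37, 0.126 and 0.262 CPM in smooth muscle-like cells. The log2 fold change was 8.46 ± 0.44 against blood endothelial-like (352-fold, edgeR adjusted p = 3.9e-08) and 10.24 ± 0.33 against smooth muscle-like cells. It ran from 7.67 without the 5 wk library to 9.58 without the 2 wk library against blood endothelial-like cells, and was 10.88 against smooth muscle-like cells without the 2 wk library. Cox4i2 was at 326, 426, 547, 389 and 422 CPM against 10.3, 3.06, 1.68, 0.197 and 1.79 CPM in blood endothelial-like and 1.22, 1.2, 0.856, 0.882 and 0.349 CPM in smooth muscle-like cells. Its log2 fold change was 7.63 ± 0.42 against the former, from 6.66 without the 5 wk to 8.86 without the 2 wk library, and 8.68 ± 0.19 against the latter. Ndufa4l2 in blood endothelial-like cells was highest in the libraries of 2, 3 and 4 wk, and Cox4i2 in those of 2 and 3 wk. In the libraries of 2, 3 and 4 wk blood endothelial-like cells had medians of 4533, 2217 and 3619 UMIs against 15162 and 9664 at 5 and 6 wk; the part of this in the levels was not tested.

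Ndufa4 itself was lower in pericyte-like cells. It was at 212, 156, 126, 169 and 159 CPM, against 496, 318, 324, 478 and 648 CPM in blood endothelial-like and 608, 308, 304, 532 and 529 CPM in smooth muscle-like cells, with log2 fold changes of -1.43 ± 0.14 and -1.65 ± 0.11. Of the UMIs of both genes Ndufa4l2 gave 6242 of 7440 in pericyte-like cells, 84.1% in the median library. In stromal-like cells the median share was 3.71%, with 6.73% in Cd24a-type and 0.161% in Hoxd9-type cells. Cox4i2 gave 2972 of 10896 UMIs in pericyte-like cells, or 27.2% in the median library. Cox4i1 did not pass the test against blood endothelial-like cells (0.13, adjusted p = 0.23) and was lower than in smooth muscle-like cells (-0.50 ± 0.05). In lymphatic endothelial-like cells Ndufa4l2 was counted in 1 of 921 UMIs of its pair and Cox4i2 in 0 of 2417.

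Over all members, these paralogs included, 40 were higher and 3 lower in pericyte-like than in blood endothelial-like cells, of 80 tested, where 20.5% and 21.9% of 8985 genes were higher and lower. Their median was 0.27 on the log2 scale, and 18 members did not overlap. Cox6b2 rose by 1.84 ± 0.27. Atp5b (0.31) lost its call without the 2 wk library (0.25). Ndufa8 (-0.78 ± 0.11) and Ndufc2 (-0.37), both of complex I, were lower. In cells of 8000 to 16000 UMIs 27 members were called, against 43 in all cells. The summed share of immediate early and heat shock genes was 1.51 to 1.78 times as high in pericyte-like cells, higher in all 5 libraries, with 8 of 9 genes higher, and its part in the members' difference was not tested.

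Against smooth muscle-like cells the picture depended on the scaling. Of 83 members 9 were higher and 18 lower in pericyte-like cells, where 22.3% and 21.2% of 11291 genes were higher and lower, with a median log2 fold change of -0.07 and 23 members that did not overlap. The summed share, however, was 1.02 to 1.2 times as high in pericyte-like cells. It is taken over all UMIs, and the share of cytosolic ribosomal genes was 0.671 to 0.727 times that of smooth muscle-like cells, with 81 of these genes lower and 0 higher. Without TMM scaling, which moves the median of all genes from 0.00 to 0.20, 28 members were higher and 7 lower. Ndufv3 was at 129, 113, 178, 104 and 122 CPM against 232, 196, 231, 188 and 225 CPM, groups that do not overlap (-0.95 ± 0.09). Cox6b2 was lower (-1.77 ± 0.19), and Atp5b (0.27) higher. Ndufaf3 (0.44 ± 0.15) lost its call without the 3, 4, 5 or 6 wk library (0.32, 0.47, 0.48 and 0.43).

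In blood endothelial-like against stromal-like cells about as many members were higher as lower, and the split depended on the processing. Of 84 members 12 were higher and 11 lower, where 25.5% and 25.8% of 12643 genes were higher and lower, and the median log2 fold change was -0.03; without TMM scaling 31 were higher and 4 lower, and DESeq2 called 9 higher and 18 lower. With no filter on low counts 7 were higher and 18 lower, without the 3 wk library 18 and 7, and without the 5 wk library 6 and 12. Without the 4 wk library 15 were called. The summed share of members was 0.987 to 1.19 times that of stromal-like cells, with a median of 1.17, and was higher in 4 of 5 libraries. Of the cytosolic ribosome genes 80 of 83 were lower. All 9 immediate early and heat shock genes were lower as well, with a summed share 0.445 to 0.582 times that of stromal-like cells. The part of these in the members' values was not tested. Ndufa8 stood out with 221, 186, 210, 278 and 353 CPM against 99.3, 83.8, 84.1, 94.1 and 125 CPM, groups that do not overlap (1.17 ± 0.12, edgeR adjusted p = 3.9e-06). Ndufb7, another accessory subunit of complex I, rose by 0.78 ± 0.10. Cox6b2 was lower, at 12.6, 12.2, 6.72, 2.75 and 1.79 CPM (-3.67 ± 0.22). Cox6c (-0.57) was lower too.

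Lymphatic and blood endothelial-like cells were compared last. None of 75 members was higher by edgeR and 2 were lower, where 11.0% and 11.9% of 6737 genes were higher and lower; at an unadjusted p below 0.05 edgeR found 2 higher and 4 lower, and DESeq2 called 0 higher and 1 lower. Ndufa8 was at 99.5, 78.1, 99.6, 116 and 90.5 CPM in lymphatic endothelial-like cells, less than in blood endothelial-like cells of each library (-1.30 ± 0.15, edgeR adjusted p = 1.9e-05). Atp5j (-0.34 ± 0.11) lost its call without the 3, 4, 5 or 6 wk library (-0.33, -0.40, -0.40 and -0.32). The lymphatic group held 15 to 81 cells per library, which limits what could be detected. In the glycolysis list 8 of 13 genes were lower in lymphatic cells, among them the glucose transporter gene Slc2a1 (-3.40 ± 0.35) and Ldha (-0.91 ± 0.11).

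Between ages there is 1 library each, so differences are given without a test, with intervals for counting error only. Members with at least 200 UMIs over the 2 and 5 wk libraries were used. In steroidogenic theca-like cells the median ratio of 5 wk over 2 wk over 79 members was 1.24, against 0.973 for all genes with that many UMIs, and the interval of 54 members lay above 1, of 9 below 1, and 16 held 1. With mitochondrially encoded and ribosomal genes left out of the totals the median was 1.15. The 2 wk cells came from the cluster of high members' share and the other cluster as 60 and 111 cells and the 5 wk cells as 479 and 122. Within these clusters the summed share was 2.89% at 2 wk and 3.14% at 5 wk, and 2.24 and 2.66%. Antral-like granulosa cells gave a median of 1.07 over 75 members (29 above, 11 below), against 0.982 for all genes, where the 2 wk cells came from the antral-led and the division-led clusters as 86 and 71 cells and the 5 wk cells as 119 and 168. Early theca-like cells gave 1.03, against 0.950 for all genes. In stromal-like cells the median was 0.919 (7 above, 46 below), against 0.943 for all genes, and in primary-like cells 0.893 (5 above, 50 below), against 0.964. Intervals above or below 1 were counted for members alone, with no such count for all genes. For genes with many UMIs an interval of counting error can leave out 1 at a small change.

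Single members of steroidogenic theca-like cells changed more than the median. Atp5g3 was 2.60 times as high at 5 as at 2 wk (2.43 to 2.79). Ndufa1, an accessory subunit gene of complex I, was at 115, 54.7, 56.9, 230 and 114 CPM, a ratio of 2.00 (1.78 to 2.24), and Uqcrq at 280, 322, 296, 530 and 342 CPM, a ratio of 1.89 (1.76 to 2.04). In all 3 the 5 wk value was the highest of the 5 ages. At the other end Cox6b2 had a ratio of 0.446 (0.363 to 0.550), Atp5g2 of 0.671 (0.639 to 0.705) and Cox7c of 0.831 (0.797 to 0.866). Cox7c was at 995, 546, 488, 827 and 1006 CPM, so that its lowest values were at 3 and 4 wk.

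In antral-like cells Ndufs4 had the highest ratio, 1.60 (1.47 to 1.76), with its lowest level at 2 wk. Ndufb3, at 114, 114, 116, 175 and 183 CPM, had a ratio of 1.53 (1.34 to 1.75), with the ages of 2, 3 and 4 wk alike and those of 5 and 6 wk higher. Atp5f1, a peripheral stalk subunit of complex V, had a ratio of 1.46 (1.35 to 1.57). The lowest ratios were those of Ndufa3 (0.602, 0.534 to 0.679), Atp5k (0.648, 0.587 to 0.717) and Ndufa7 (0.669, 0.629 to 0.711). Each of the 3 was highest at 2 and lowest at 5 wk. The libraries of 5 and 6 wk were counted with another version of the counting software than those of 2, 3 and 4 wk, which cannot be told apart from age.

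**Figure D4:**
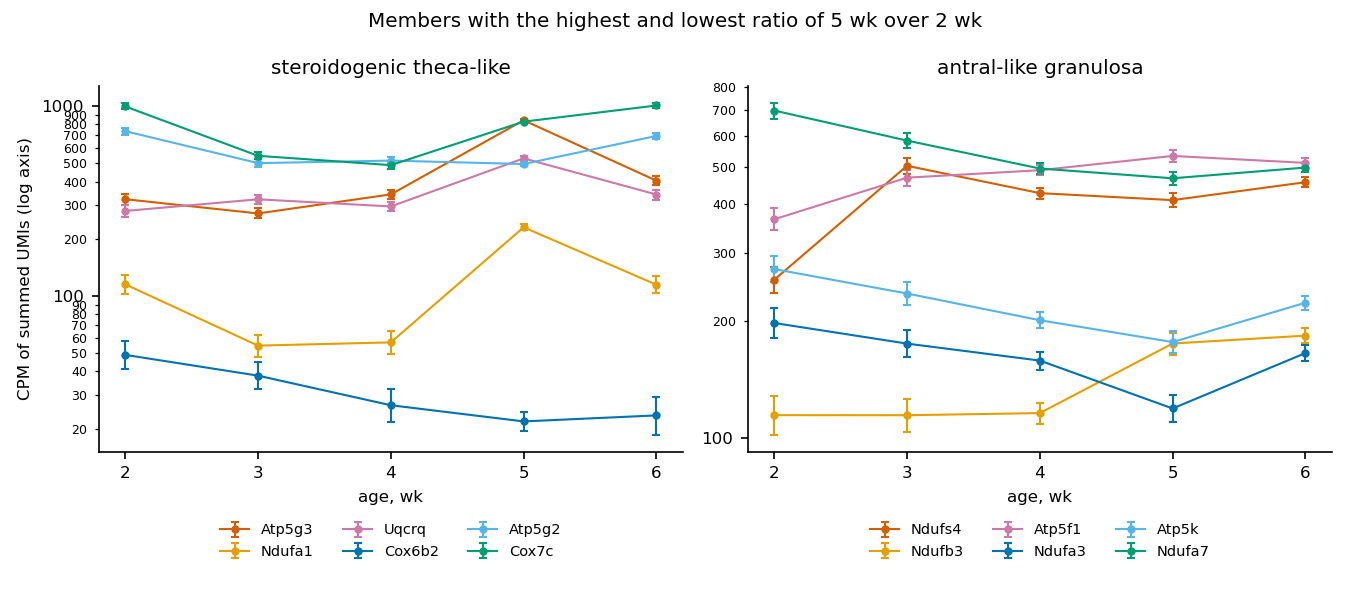
Level of the members with the 3 highest and 3 lowest ratios of 5 wk over 2 wk in steroidogenic theca-like (left) and antral-like granulosa cells (right); vertical axis CPM on a log scale, horizontal axis age in wk, 1 library per age, bars 95% exact Poisson intervals for counting error. Atp5g3 reaches 841 CPM in theca-like cells at 5 wk, and Ndufs4 is lowest in antral-like cells at 2 wk (255 CPM).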

How the data were processed

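Per the labels and the headers of the matrices, the authors took mm10 as the genome and obtained UMI counts by gene and barcode from Cell Ranger 3.1.0 (2, 3 and 4 wk) or 6.0.1 (5 and 6 wk); the deposited count matrices hold these raw counts as whole numbers. Seurat 4.1.0 is also named in the submitters' processing notes. The study's cell annotation was not used here.

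Cells were integrated over libraries and clustered in Seurat 5.3.0 (30 principal components, resolution 1), with members removed from the 2000 variable genes (Ndufa4l2 and Cox4i2 had been among them), and granulosa and mesenchymal cells were clustered again. Clusters were named from fixed markers; limits on cells, doublets and leading genes were set after the clusters were seen. Doublets called by Scrublet (162 to 555 per library) were kept and left out in an alternative. The members and lists were chosen with earlier results of these data known. UMIs were summed per group and library (at least 10 cells) and tested with edgeR 4.0.16 (quasi-likelihood, TMM, filterByExpr, library as block) over all genes, with DESeq2 1.42.0 as an alternative. The test was also run on simulated counts for some comparisons, with the same spread set for all genes. That run cannot check the p-values of the real libraries. Nothing in the labels says that libraries are replicates. As the library is a block, p-values measure how the difference between groups within a library varies over these 5 libraries, which differ in age. Groups of 1 library share its cells' preparation, which is what the block pairs. The 3 planned comparisons with secondary-like cells were not run, since no cluster was led by those markers, and 2 comparisons with primary-like cells were added.

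Genes were named by rule: in each comparison the 3 highest and 3 lowest log2 fold changes among members called and differing alike in every library, central subunits of each complex, all paralog families and, for ages, the 3 highest and lowest ratios. Ndufc1, Uqcrq, Cox6c, Cox7c and Atp5o were named in some comparisons after their values were seen. Intervals are exact (binomial, Poisson, conditional for ratios) at 95% and cover counting error only. Shares over all UMIs and TMM-scaled fold changes use different totals. Fewer copies per cell and a larger total of other RNA cannot be told apart in either. Antisense or overlapping genes were not separated here. Results for some members and listed genes are not reported here.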

Additional observations from a re-analysis of the deposited data

Results flagged for a closer look

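Dixon's test was applied to the 5 libraries of a group for 105 values, and chance marks about 1 in 20; it marked 9. As each library is a different age, a library that stands apart is also an age that stands apart, and these cannot be told apart.

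At 2 wk Cox7a1 stood apart in 4 groups of granulosa cells. It was at 29.7 CPM in primordial-like cells (nearest other library 10.7), 9.47 CPM in primary-like cells (nearest 3.54), 6.34 CPM in remodeling-like cells (nearest 1.77) and 9.65 CPM in all granulosa-like cells (nearest 3.23), the last of which contain the others. Its share of the Cox7a1 and Cox7a2 UMIs in primordial-like cells was 8.56% at 2 wk, with 2.78% as the nearest value.

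At 5 wk steroidogenic theca-like cells stood apart with 620 CPM of Cox6a1 (nearest 422) and 841 CPM of Atp5g3 (nearest 404). The summed share of members in early theca-like cells was 2.23% at 6 wk, with 2.03% as the nearest value. Cox4i2 was at 10.3 CPM in blood endothelial-like cells at 2 wk (nearest 3.06).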

How the results depend on the processing

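Counts of called members kept their size (within 1.5 times) under most alternatives. The exceptions follow, and unless stated their cause was not tested. The share of all genes called in each alternative is not given. A change common to all genes therefore cannot be told from one of the members. Without the block for the library, which pairs groups taken from the same library, the counts were 23 (44 with it) for steroidogenic against early theca-like, 9 (72) for early theca-like against stromal-like, 5 (31) for primary-like against primordial-like, 44 (74) for remodeling-like against antral-like, 13 (23) for blood endothelial-like against stromal-like, 1 (2) for lymphatic against blood endothelial-like, 23 (43) for pericyte-like against blood endothelial-like and 13 (27) for pericyte-like against smooth muscle-like cells. Leaving out 1 library gave 27 to 48, 10 to 34, 15 to 25 and 1 to 2 calls for steroidogenic against early theca-like, primary-like against primordial-like, blood endothelial-like against stromal-like and lymphatic against blood endothelial-like cells; fewer libraries enter these fits. Cells of 8000 to 16000 UMIs, which are fewer cells, gave 25 calls for steroidogenic against early theca-like, 40 for steroidogenic theca-like against stromal-like, 43 for early theca-like against stromal-like, 1 for lymphatic and 27 for pericyte-like against blood endothelial-like, and 19 for pericyte-like against smooth muscle-like cells, where the balance turned to 10 higher and 9 lower. The lymphatic fit at this depth had 3 libraries, those of 2, 4 and 5 wk. No TMM scaling gave 35 calls for blood endothelial-like against stromal-like and 35 for pericyte-like against smooth muscle-like cells, where the balance turned to higher and Atp5g2 went from -0.19 to 0.015. It moved the median of all genes by over 0.1 in these 2 comparisons (-0.02 to 0.14 and 0.00 to 0.20) and in granulosa-like against stromal-like cells (0.04 to 0.20). The split of 12 higher and 11 lower in blood endothelial-like against stromal-like cells became 7 and 18 with no filter on low counts and 9 and 18 by DESeq2, and that of 9 and 18 in pericyte-like against smooth muscle-like cells 5 and 26 with no filter. DESeq2 gave 1 call for lymphatic against blood endothelial-like cells. Atp5g1, Cox7b and Cox8a reversed in granulosa-like against stromal-like cells at 8000 to 16000 UMIs (-0.035, -0.085 and -0.019). The median summed share was 2.54% with the unnamed cluster among antral-like cells and 2.60% in pericyte-like cells of 8000 to 16000 UMIs, and the theca ratio of 5 over 2 wk was 1.15 without mitochondrial and ribosomal genes in the totals. Calls of the genes named were counted once per gene and comparison. Of these, DESeq2 kept 181 and lost 17, and leaving out 1 library kept 877 and lost 110 over all fits. Without the block for the library 132 were kept and 66 lost. In cells of 8000 to 16000 UMIs 149 were kept, 39 lost and 3 reversed. The 3 comparisons with secondary-like cells were not run. Small groups set the precision: 15 lymphatic endothelial-like cells at 6 wk and 70 blood endothelial-like cells at 3 wk.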
